A study of Mus musculus with 38 samples.

Results

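The proteasome subunit genes are described here in the prefrontal cortex (PFC) and hypothalamus (Hypo) of Ube3a2X mice and their wild type (WT) littermates. The rule for members used names and no measured value: every gene of the count table whose symbol is Psma, Psmb, Psmc, Psmd, Psme, Psmf or Psmg followed by a number, with 1 gene of that form left out. This gave 47 genes of the 54165 in the table, on 16 chromosomes. RNA-seq read counts were available for 20 PFC and 18 Hypo libraries from 25 mice, of which 13 gave both tissues. All were adult FVB/NJ mice. Ube3a2X mice were homozygous for a transgene that adds copies of Ube3a and carries a tag at the C-terminal end of the protein, and the ligase activity of these tagged copies is not certain. WT mice carried no transgene. Each sex of each genotype gave 5 PFC libraries. In the Hypo there were 4 libraries per sex for WT and 5 per sex for Ube3a2X. Libraries were made from bulk tissue, PFC micropunches or the excised Hypo.

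The proteasome is the protease that degrades proteins marked with ubiquitin, and UBE3A is one of the ligases that attach that mark. Its 20S core is a barrel of alpha and beta rings, and beta subunits carry the cutting sites. The 19S cap recognises ubiquitin chains, unfolds the substrate with a ring of ATPases and feeds it into the core. In immune cells, and in many tissues under interferon, inducible beta subunits replace the constitutive ones, and the PA28 activator opens the core for peptide production. In neurons, proteasome activity is known to take part in the turnover of synaptic proteins.

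The counted reads per library ranged over 36.89 to 69.1 × 1e6 for PFC and 39.0 to 380.8 × 1e6 for Hypo, and members took 0.248% to 0.319% and 0.286% to 0.553% of them. The PFC libraries held cortical marker transcripts at 1967 to 2567 CPM (read counts scaled to a common library size of 1e6 reads) summed over 6 genes against 8.24 to 20.1 CPM in the Hypo, and hypothalamic markers, summed over 8 genes, stood at 0.722 to 1.90 CPM in the PFC and 421 to 2033 CPM in the Hypo. The labelled tissues therefore matched their markers. Ube3a was higher in Ube3a2X than in WT libraries, by 2.32 ± 0.15 (SE) on the log2 scale in the PFC (edgeR quasi-likelihood test, adjusted p = 5.11e-07) and by 1.97 ± 0.18 in the Hypo (adjusted p = 6.99e-04). All WT libraries held less Ube3a than all Ube3a2X libraries of either tissue.

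Coverage along the transcripts was uneven in 5 libraries, with a coefficient of variation of read depth of 0.533 to 0.717 against at most 0.517 in the other 33. They are PFC WT female 397, PFC Ube3a2X female 468, PFC Ube3a2X male 258, Hypo WT female 471 and Hypo Ube3a2X male 238. Each stood apart in its proteasome values, so the comparisons were also made without them.

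A filter on low counts (fewer than 2 libraries of the tissue under 100 reads) left 42 members for the PFC and 44 for the Hypo, of 47. The inducible subunits Psmb8 and Psmb9 passed in the Hypo alone, the tissue in which they were higher, and Psma8, Psmb11 and Psmg4 passed in neither. Psma8 encodes a testis form of an alpha subunit and held 2 to 90 reads per library. Psmb11 encodes the catalytic subunit of cortical thymus cells and held 2 to 37 reads. Psmg4, a small assembly chaperone, spanned 0.905 to 2.95 CPM in PFC libraries and 0.883 to 6.20 CPM in Hypo libraries.

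Levels of different members were compared as CPM per kilobase of annotated exon. In WT PFC the highest were 126.4 for Psmc5 and 90.5 for Psmc1, both ATPases of the 19S base, followed by 58.3 for Psma6 of the alpha ring and 58.2 for Psmd2, the Rpn1 scaffold of the 19S base. The constitutive catalytic subunits stood at 31.7 for Psmb5 (the chymotrypsin-like site), 39.9 for Psmb6 (the caspase-like site) and 30.8 for Psmb7 (the trypsin-like site). Their inducible counterparts stood at 0.652 for Psmb8, 0.299 for Psmb9 and 16.0 for Psmb10. Psmb8 and Psmb9 were therefore far below the subunits they can replace. Psmb10 was also below its counterpart Psmb7 (16.0 against 30.8), but by less. The assembly chaperone Psmg3 (2.62) and the 19S base chaperone Psmd9 (2.52) were the lowest of the members that passed the filter in both tissues. The order in WT Hypo was headed by Psmc5 (107.8), Psmc1 (80.4) and Psma6 (78.7). The SD of single members between libraries of a group ranged from 0.068 (Psmc3) to 0.54 (Psmb5) on the log2 scale in the PFC, with a median of 0.17 over the members and of 0.19 over all genes. At that spread the neighbours Psmb5, Psmb7 and Psma4 (30.5) in the PFC order differed by less than the spread between libraries.

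The promoters of the members were searched because factors of the NRF family are known to raise proteasome genes together through the antioxidant response element, and interferon raises the inducible ones through its response element. RefSeq promoters (GRCm38.p6, from 250 bases before to 50 bases after the start) were found for 39 members, in 42 promoters. The core TGACNNNGC was found on either strand in 6 of the 42 (14.3%), against 12.4% of all 32851 promoters. These letters were in promoters of Psmb5, Psmb6, Psmc6, Psmd9, Psmd12 and Psme4. The core of the interferon element, GAAA followed by 2 bases of any kind and again GAAA, was in 4 (9.52% against 3.44%), those of Psmb3, Psmd9, Psme1 and Psmg4. CCAAT was in 31.0% (37.4% of all) and TATAAA in 9.52% (13.6% of all). The 3 matches of the first core on the strand of the gene, and the 1 upstream match of the second core on that strand, are shown because they lie before the start, in genes of 2 core subunits and a 19S base chaperone, 5′ to 3′ with the match in capitals:
Psmb5, chr14:54618023-54618052, minus strand: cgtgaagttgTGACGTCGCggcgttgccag
Psmb6, chr11:70525327-70525356, plus strand: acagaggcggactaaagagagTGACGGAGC
Psmd9, chr5:123228149-123228178, plus strand: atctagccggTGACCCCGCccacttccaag
Psmd9, chr5:123228021-123228050, plus strand: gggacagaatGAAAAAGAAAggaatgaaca
A match of these letters is a description of the sequence and not a bound site. Psmb8 and Psmb9 held no match of the interferon core in these windows, and the matches of Psme1 and Psmg4 lay after the start.

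The comparison of the Hypo with the PFC gave the clearest differences among the members. The PA28 activator genes Psme1 and Psme2 and the 19S base chaperone Psmd5 were higher in the Hypo. Psme3, which encodes the nuclear activator PA28 gamma, and the 19S subunits Psmc3 and Psmd8 were lower. Among the 42 members that passed the filter in both tissues, 5 were higher and 10 lower at an adjusted p of 0.05 (edgeR with RIN, the RNA integrity number, as covariate, all 38 libraries). Over all 44 members tested the count was 17, with 7 higher, but Psmb8 and Psmb9 entered through the Hypo alone, where they were high, and are not counted as support. Of all 14219 genes, 68.4% passed (35.6% higher, 32.8% lower). In this fit the share of members that differed was below that of genes in general. The median member difference was 0.02 on the log2 scale and that of all genes 0.02. The sign of the member median was not stable, at -0.14 without the uneven libraries (all genes 0.01) and -0.12 with an offset for GC content and length (all genes -0.06).

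The tissues were extracted with different kits and RNA inputs, and RIN ranged over 6.7 to 8.9 (PFC) and 6.8 to 9.3 (Hypo), so the tissue and its handling cannot be told apart. Neuronal markers (8 genes) summed to 9414 to 14160 CPM for PFC libraries and 3703 to 4706 CPM for Hypo libraries, and oligodendrocyte markers to 1001 to 3507 CPM and 3281 to 5680 CPM (8 genes). Microglial markers (10 genes) summed to 328 to 498 CPM (PFC) and 262 to 365 CPM (Hypo), and endothelial markers (8 genes) to 198 to 499 CPM and 172 to 232 CPM. Astrocyte markers (8 genes) summed to 5078 to 11820 CPM in the PFC and 3645 to 5191 CPM in the Hypo, and choroid plexus markers (5 genes) to 0.999 to 4.57 CPM and 11.3 to 34.7 CPM. Blood markers (5 genes) summed to 37.7 to 111.3 CPM in the PFC and 59.0 to 315.7 CPM in the Hypo, and pituitary markers (6 genes) to 0.043 to 2.33 CPM and 29.2 to 4830 CPM. The part of cell composition in the differences was not tested, and in bulk tissue fewer cells of a type and less RNA per cell cannot be told apart.

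Psme1 and Psme2 encode the alpha and beta subunits of PA28 and lie near each other on chromosome 14 (GRCm38, 55578123 to 55581529 and 55587441 to 55591113). In the PFC, Psme1 was measured at 15.4, 16.8 and 18.9 CPM in WT (lowest, median and highest of 10) and at 14.1, 16.9 and 22.5 CPM in Ube3a2X (10). In the Hypo it was measured at 31.0, 35.4 and 84.8 CPM in WT (8) and 25.4, 32.3 and 37.7 CPM in Ube3a2X (10). All Hypo libraries lay above all PFC libraries, the highest being the uneven Hypo WT female 471. Psme1 was higher in the Hypo by 1.06 ± 0.14 (log2, SE; adjusted p = 1.82e-08), by 1.09 ± 0.08 without the 5 uneven libraries, and in 13 of 13 mice that gave both tissues. Psme2 was measured at 8.44, 16.3 and 19.4 CPM in the PFC (20) and at 22.7, 26.9 and 55.8 CPM in the Hypo (18). The ranges did not overlap for this gene either. Psme2 was higher in the Hypo by 0.84 ± 0.14 (adjusted p = 2.72e-06), in 13 of 13 mice, and by 0.66 ± 0.07 without the uneven libraries.

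Psme3 (chromosome 11, 101316213 to 101323537), the member of the family that forms a ring of its own in the nucleus, was lower in the Hypo. It was measured at 114.1, 121.5 and 165.3 CPM in the PFC and at 81.2, 85.5 and 91.0 CPM in the Hypo, with no overlap. The difference was -0.61 ± 0.06 on the log2 scale (adjusted p = 9.09e-12), and Psme3 was lower in the Hypo in 13 of 13 mice. Psme4, which encodes the large activator PA200, was also lower, with a difference of -0.29 ± 0.10 (adjusted p = 0.011, and 0.42 with the mouse as a block, both with edgeR), and its tissue ranges overlapped (45.8 to 64.8 CPM against 26.6 to 63.2 CPM).

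**Figure D1:**
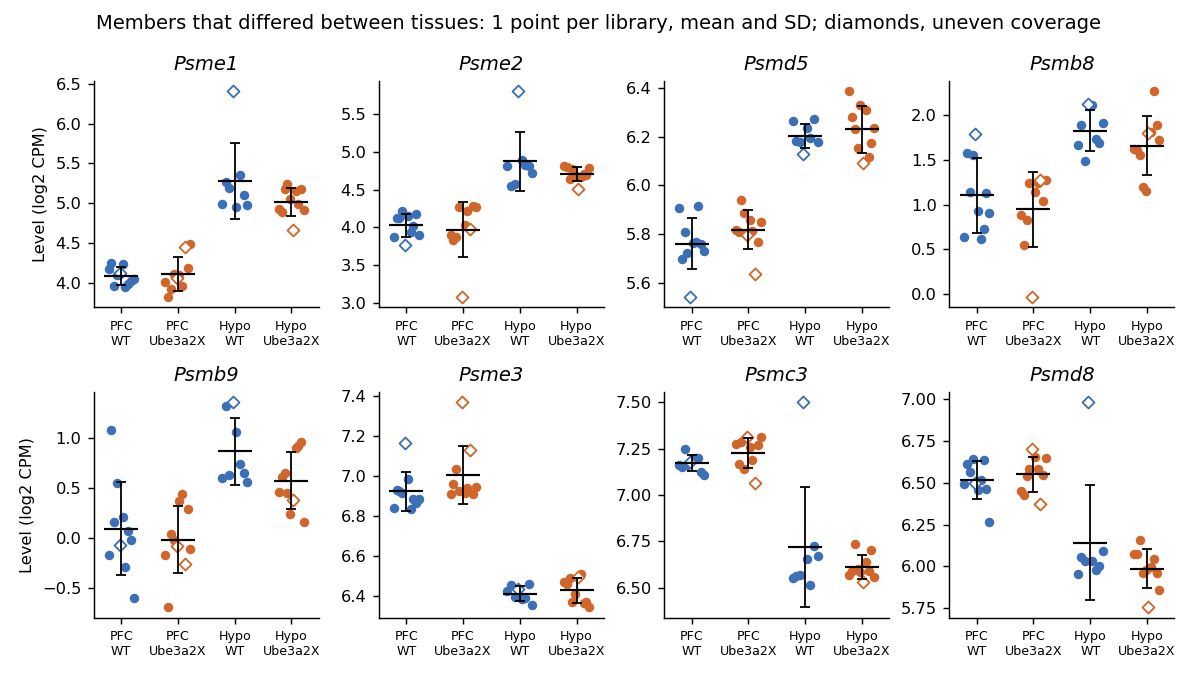
Level of 8 members in each library (log2 CPM, 1 point per library) by tissue and genotype, with the mean as a line and the SD as a bar; open diamonds are the 5 libraries of uneven coverage. Psme1, Psme2 and Psmd5 show no overlap between the tissues with the Hypo above, and Psme3 none with the PFC above, while Psmb8, Psmb9, Psmc3 and Psmd8 overlap.

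The inducible subunits are described one by one. Psmb8 (beta5i) and Psmb9 (beta1i) lie close to each other in the major histocompatibility region of chromosome 17 (34197721 to 34201454 and 34181987 to 34187764). Psmb8 was measured at 0.952, 2.10 and 3.44 CPM in the PFC and at 2.19, 3.29 and 4.79 CPM in the Hypo, a difference of 0.74 ± 0.15. Psmb9 was measured at 0.593, 0.962 and 2.08 CPM in the PFC and at 1.09, 1.53 and 2.53 CPM in the Hypo, a difference of 0.76 ± 0.18. Both genes entered the test through the Hypo alone, since too few PFC libraries reached 100 reads, so these differences are given as a description. Both ranges overlapped between the tissues, and the Hypo value was the higher in 12 of 13 and 13 of 13 mice. Psmb9 overlaps Tap1 and Psmb8 overlaps a noncoding gene on the opposite strand, and the expected strand held 91.5% to 99.1% (PFC) and 95.7% to 99.0% (Hypo) of reads, and the part of reads from the other strand in these low counts was not tested. Psmb10 (beta2i, chromosome 8) was at 13.5, 28.1 and 35.9 CPM in the PFC and at 11.3, 18.7 and 44.2 CPM in the Hypo, with the higher median in the PFC. Its difference was -0.34 ± 0.19 (adjusted p = 0.12) with all libraries and -0.60 ± 0.09 without the uneven ones, where it passed, and -0.26 ± 0.37 (adjusted p = 0.61) with the mouse as a block.

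The constitutive catalytic subunits did not pass the test with all libraries. The differences were -0.03 ± 0.23 for Psmb5, 0.30 ± 0.16 for Psmb6 and -0.10 ± 0.12 for Psmb7. Of these 3 genes, Psmb5 and Psmb7 passed without the uneven libraries (-0.35 ± 0.12 and -0.21 ± 0.05), and Psmb6 did not (0.05). None of the 7 alpha ring and 4 structural beta ring genes tested passed with all libraries, where 68.4% of all genes passed. Without the uneven ones 5 of 7 and 1 of 4 were lower, where 37.3% of all genes were lower.

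In the 19S cap, 4 of 6 ATPases were lower in the Hypo and none was higher, against 32.8% lower and 35.6% higher of all genes. Psmc3 (Rpt5) was measured at 134.1, 146.2 and 158.7 CPM in the PFC and at 91.3, 96.5 and 181.1 CPM in the Hypo. The highest Hypo value was that of the uneven WT female 471, and the ranges were apart without the uneven libraries. The difference was -0.54 ± 0.09 (adjusted p = 2.13e-06) for Psmc3, -0.47 ± 0.11 for Psmc1 (Rpt2), -0.36 ± 0.11 for Psmc5 (Rpt6) and -0.30 ± 0.08 for Psmc6 (Rpt4). Of the 10 non-ATPases, 4 were lower and 1 was higher, beside the same shares of all genes. Psmd8 (Rpn12) was measured at 76.8, 93.4 and 104.1 CPM in the PFC and at 53.9, 64.8 and 126.6 CPM in the Hypo, where WT female 471 was again the highest. The difference was -0.50 ± 0.10 (adjusted p = 3.14e-05) for Psmd8, -0.26 ± 0.08 for Psmd7 (Rpn8), -0.21 ± 0.05 for Psmd11 (Rpn6) and -0.16 ± 0.05 for Psmd2, and it was 0.19 ± 0.06 (adjusted p = 0.0075) for Psmd1 (Rpn2). Psmc1, Psmc3, Psmc5, Psmc6, Psmd7 and Psmd8 were lower in the Hypo in 13 of 13 mice. With the mouse as a block the calls of Psmc6, Psmd7, Psmd11, Psmd2 and Psmd1 were lost (adjusted p = 0.086, 0.094, 0.37, 0.37 and 0.19 with edgeR).

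Of the 6 chaperone genes tested, 2 were higher in the Hypo and 0 lower, near the 35.6% higher of all genes. Psmd5, a chaperone of the 19S base that is released before the cap is complete, was measured at 46.6, 55.8 and 61.3 CPM in the PFC and at 68.3, 74.2 and 83.7 CPM in the Hypo. The ranges did not overlap, and the difference was 0.45 ± 0.05 (adjusted p = 2.20e-09), in 13 of 13 mice. Psmg1, which pairs with Psmg2 to assemble the alpha ring, was at 0.47 ± 0.15 (adjusted p = 0.0048, and 0.25 with the mouse as a block, both with edgeR), while Psmg2 was at 0.01 ± 0.14. Psmf1, an inhibitor of the core, was at 0.12 ± 0.08 (adjusted p = 0.19).

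Ranges of CPM that did not overlap between the tissues were found for 4 of 44 members, against 25.9% of all genes, and without the uneven libraries for 8 of 44, against 42% of all genes. The 4 added were Psmb10, Psmc3, Psmc5 and Psmd8, each lower in the Hypo. Without the uneven libraries 29 of 45 members passed the test, 7 higher and 22 lower, against 76.2% of all genes (38.8% and 37.3%), and the 17 members called with all libraries were among them. With the mouse as a block, which compares the tissues within the 13 mice that gave both, 10 of 45 passed, 5 higher and 5 lower, all among the 17, against 41.7% of all genes. These were Psme1, Psme2 and Psmd5, beside Psmb8 and Psmb9, which entered through the Hypo alone (higher), and Psme3, Psmc1, Psmc3, Psmc5 and Psmd8 (lower). With 2 surrogate variables 33 of 44 members passed, against 78.9% of all genes, and with an offset for GC content and length 26 of 44, against 74.5%, so the gap between members and all genes depended on the fit.

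**Figure D2:**
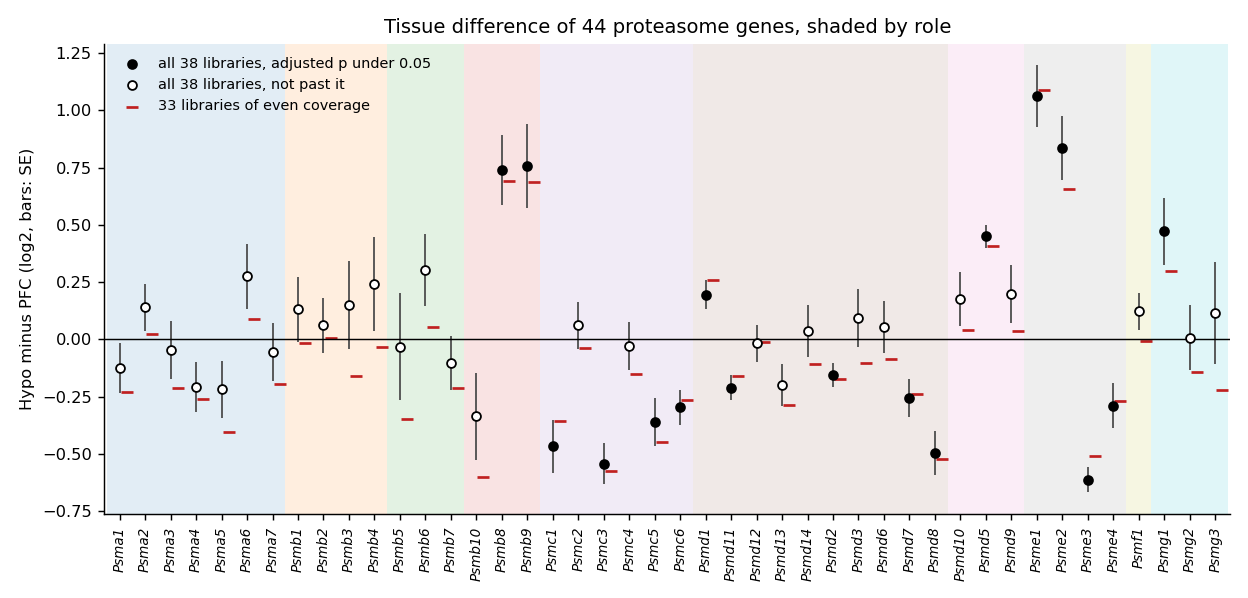
Difference between the tissues (Hypo minus PFC, log2) of the 44 members tested, ordered and shaded by role, with SE bars; filled points passed an adjusted p of 0.05 with all 38 libraries, open points did not, and red dashes are the values from the 33 libraries of even coverage. Psme1 is the highest point at 1.06 and Psme3 the lowest at -0.61, and most red dashes of the core rings lie below their points.

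The tissue difference was similar in sign in both genotypes for the members that led it. In WT mice 17 of 44 members passed (9 higher, 8 lower, against 65.1% of all genes, 34.4% higher and 30.7% lower) and in Ube3a2X mice 15 of 44 (5 higher, 10 lower, against 61.6% of all genes, 31.5% and 30.1%), and both counts include Psmb8 and Psmb9. With the mouse as a block 5 were higher and 4 lower in WT and 4 higher and 5 lower in Ube3a2X. Over both genotypes together, 41.7% of all genes passed with the block. The balance of directions moved with the fit. Psme1 differed by 1.24 ± 0.15 in WT and 0.88 ± 0.17 in Ube3a2X, and Psme3 by -0.56 ± 0.06 and -0.66 ± 0.07. The test of the difference between genotypes passed for 0 of 44 members and for 0% of all genes with edgeR, and also for 0 members with DESeq2. At an unadjusted p under 0.05, 7 members were lower and 0 higher with edgeR, against 4.51% and 4.15% of all genes, and without the uneven libraries 3 of 45 were lower and 0 higher (2.22% and 3.39%). The count depended on the fit, from 0 lower with the mouse as a block and 0 with 2 surrogate variables to 7 with DESeq2, 8 with the offset for GC content and length and 11 with the filterByExpr filter of edgeR. The shares of all genes in these fits are not given, so the counts show only that the number moved. Leaving out 1 library gave 1 (without Hypo WT female 471) to 14 (without Hypo WT female 410). The smallest p values were those of Psmb2, a structural beta subunit (-0.44 ± 0.16, adjusted p = 0.47), Psmd12 of the lid (-0.25 ± 0.10) and Psma4 (-0.33 ± 0.14). Above 0 they were those of Psme4 (0.19 ± 0.13), Psmd3 (0.06 ± 0.16) and Psmf1 (0.03 ± 0.11).

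Genes that act with the proteasome were also tested between the tissues. Of 25 partner genes, among them shuttle factors, deubiquitinases of the cap and the NRF factors, 24 were found and tested, and 4 were higher and 10 lower in the Hypo, against 35.6% higher and 32.8% lower of all genes. The differences were -1.42 ± 0.07 for the shuttle factor Ubqln4, -0.99 ± 0.06 for Zfand5, a zinc finger protein that stimulates the proteasome, and -0.56 ± 0.07 for Rad23b, a further shuttle factor. Txnl1, a thioredoxin-like protein bound to the cap, was higher by 0.41 ± 0.07 and Nfe2l2 (NRF2) by 0.43 ± 0.11. Of 15 genes of antigen presentation and the interferon response, 12 were tested. Of these, Tap1, Ifit1 and Ifit3 passed the filter in the Hypo alone, so their higher values are no support, and of the other 9, 7 were higher and 1 lower in the Hypo, against the same shares of all genes. The peptide transporter gene Tap2, which lies beside Psmb8, was higher by 1.13 ± 0.14 and the interferon-response factor Irf9 by 0.96 ± 0.10, while Stat2 stood at -0.16 ± 0.07. The summed level of the 15 genes was 162 to 308 CPM in PFC and 277 to 432 CPM in Hypo libraries.

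The study compared Ube3a2X with WT mice in each sex to ask how Ube3a dosage acts with sex on gene expression. No member passed the test in either tissue. In the PFC, 0 of 42 members were called (edgeR with RIN and 2 surrogate variables), against 0.0156% of all 12824 genes, and DESeq2 also called 0. Values of 36 of 42 members were above 0, and the median was 0.08 on the log2 scale against 0.01 over all genes. Members were correlated across libraries, so their signs are not independent of each other. At an unadjusted p under 0.05, 8 members were higher and 0 lower, against 3.06% and 4.4% of all genes. Leaving out 1 library gave 4 (without PFC WT female 259 or 397) to 14 (without PFC WT female 93) higher and 0 lower. The smallest p values belonged to Psmb2 (0.21 ± 0.07, adjusted p = 0.48), the Rpn8 gene Psmd7 (0.09 ± 0.03, adjusted p = 0.48) and the Rpt1 gene Psmc2 (0.14 ± 0.05, adjusted p = 0.52). Those with the smallest p below 0 were Psme4 (-0.04 ± 0.04), Psmb5 (-0.04 ± 0.05) and Psmd3 (-0.02 ± 0.05). Without the uneven libraries, 34 of 42 values were above 0 with a median of 0.07, 10 were higher and 0 lower at an unadjusted p under 0.05 (3.8% and 4.8% of all genes), and again 0 were called.

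The ranges of Ube3a2X and WT libraries overlapped for every member in both tissues, while ranges were apart for 0.0078% (PFC) and 0.0143% (Hypo) of all genes. In the Hypo, 0 of 44 members were called (against 0.00716% of all genes), 0 by DESeq2, and 0 were higher and 0 lower at an unadjusted p under 0.05 with edgeR (1.8% and 3.19% of all genes), and 2 were higher with DESeq2. Leaving out 1 library gave up to 6 higher (without Hypo Ube3a2X male 404) and up to 1 lower. Without the uneven libraries 5 of 45 were higher and 1 lower (5.52% and 4.53% of all genes), and 0 were called. The median was 0.03 on the log2 scale. Above 0, the smallest p values were those of Psmd2 and Psmc5 (both 0.07 ± 0.04) and of Psmd10, a 19S chaperone also known as gankyrin (0.12 ± 0.07, adjusted p = 0.95). Below 0 were Psmb9 (-0.26 ± 0.12, adjusted p = 0.95), Psme1 (-0.07 ± 0.06) and Psmd9 (-0.05 ± 0.05).

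In PFC females, 19 of 42 members were higher and 1 lower in Ube3a2X at an unadjusted p under 0.05, against 7.81% and 6.72% of all genes, and 0 were called after adjustment with edgeR (0.0078% of all genes) or DESeq2. All 7 alpha ring genes tested were among the 19, with values of 0.17 to 0.31 on the log2 scale, and 3 of 4 structural beta genes. The smallest p values were those of Psma2 (0.31 ± 0.09, adjusted p = 0.31), the Rpt4 gene Psmc6 (0.27 ± 0.08, adjusted p = 0.31) and Psmc2 (0.25 ± 0.08, adjusted p = 0.31). Psmd3, Rpn3 of the lid, was at -0.14 ± 0.07, and the activators Psme1 and Psme2 were at -0.18 ± 0.09 and -0.07 ± 0.10. The count moved with 1 library. PFC WT female 397 had a module mean of 5.60 log2 CPM against 5.84 to 5.93 in the other 4 WT females, and a coding share of aligned bases of 51.9% against 43.0% to 44.9%. Without it, 1 member was higher at an unadjusted p under 0.05. Without all 5 uneven libraries 0 members were higher and 0 lower (0.94% and 1.42% of all genes), and the median was 0.05 in place of 0.12.

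In PFC males, few members had a small p with all libraries. With all libraries 0 members were higher and 1 lower at an unadjusted p under 0.05 (8.37% and 10.2% of all genes), and 0 were called by edgeR (0.117% of all genes) or DESeq2. That 1 member was Psme4, at -0.14 ± 0.05 (adjusted p = 0.19). Psmb5 was at -0.13 ± 0.07 and the Rpn7 gene Psmd6 at -0.11 ± 0.06, and Psme1 at 0.15 ± 0.08, Psmd3 at 0.11 ± 0.06 and Psmd7 at 0.07 ± 0.04. Without the uneven libraries 8 were higher and 0 lower (2.21% and 2.77% of all genes), 34 of 42 values were above 0 and the median was 0.08 in place of 0.01. PFC Ube3a2X male 258 had a module mean of 5.54 against 5.90 to 5.999 in the other 4 Ube3a2X males, but without it alone 3 were higher and the median was 0.02, and no single library left out gave a median above 0.04.

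The interaction of sex and genotype in the PFC was the male effect minus the female effect. With edgeR 0 of 42 members and 0% of all genes were called, and at an unadjusted p under 0.05, 12 members were negative and 2 positive, against 14.2% and 11.4% of all genes. The study, with limma-voom and a further filter on variance, reported many genes for this interaction. Its qRT-PCR in separate mice also showed the interaction for the genes probed. The number of genes called therefore differed between the study's fit and this one. DESeq2 called 2 members (and 7.48% of all genes), Psmc6 (-0.35) and Psma2 (-0.34). In the edgeR test these were at -0.37 ± 0.11 (adjusted p = 0.088) and -0.36 ± 0.12 (adjusted p = 0.099), Psma3 was at -0.37 ± 0.14 (adjusted p = 0.12), and Psmd3, Psme1 and Psmf1 were positive at 0.25 ± 0.09, 0.33 ± 0.12 and 0.15 ± 0.09. The median member was at -0.15 with all libraries and at 0.05 without the uneven ones, when 0 members were positive and 0 negative at an unadjusted p under 0.05 (0.42% and 0.573% of all genes). Leaving out single libraries moved the number of members called, which was 9 without PFC WT female 93, 8 without PFC Ube3a2X male 253, 1 without PFC Ube3a2X female 462 and 0 without any other of the 20. The shares of all genes called in these fits are not given, so the counts are no result about the members.

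**Figure D3:**
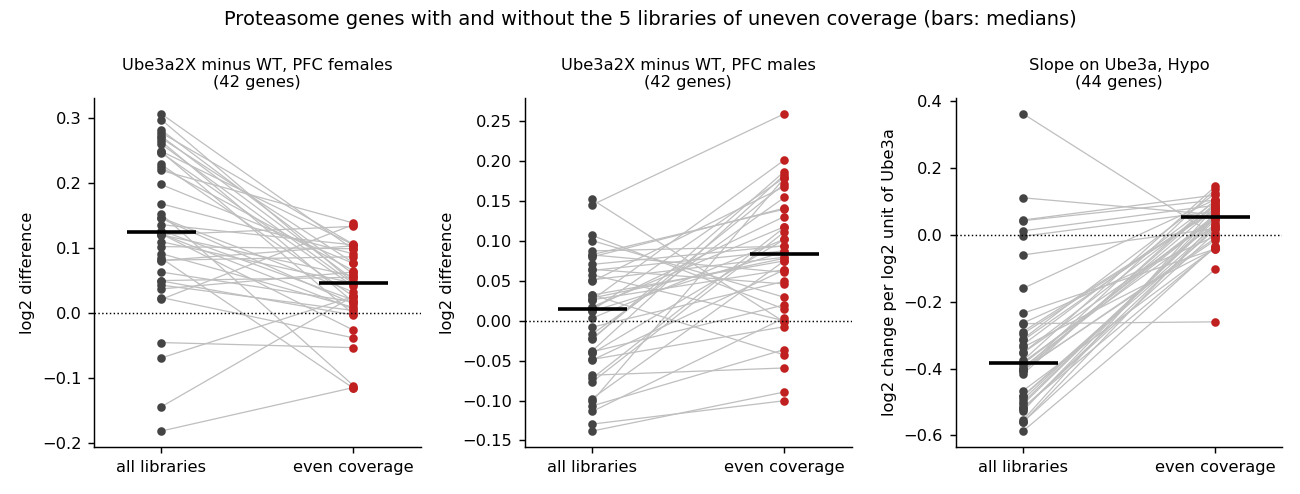
Values of single members with all libraries (grey) and without the 5 libraries of uneven coverage (red), joined by lines, with black bars at the medians: Ube3a2X minus WT in PFC females and PFC males (log2) and the slope on the Ube3a level in the Hypo (log2 change per log2 unit). The median falls from 0.12 to 0.05 in females, rises from 0.01 to 0.08 in males, and turns from -0.38 to above 0 for the slope.

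In the Hypo, 0 of 44 members were called in males, in females or for the interaction (against 0%, 0.00716% and 0% of all genes), by edgeR or DESeq2. At an unadjusted p under 0.05 0 members were higher and 0 lower in males (3.59% and 4.91% of all genes). In females 2 were higher and 1 lower (1.26% and 1.83%), and for the interaction 0 were positive and 2 negative (3.12% and 3.42%). Without the uneven libraries 0 of 45 were higher and 2 lower in males (5.66% and 4.72% of all genes), 10 higher and 1 lower in females (4.14% and 2.45%), and 0 positive and 7 negative for the interaction (3.16% and 3.85%), with 0 called in each. In females the smallest p values were those of Psma2 (0.11 ± 0.04), Psmb5 (0.19 ± 0.09) and Psmd10 (0.18 ± 0.09) above 0 and of Psmb9 (-0.38 ± 0.16), Psmb8 (-0.27 ± 0.15) and Psme1 (-0.10 ± 0.08) below it. In males, Psmc2, Psmc1 and Psmd3 were at 0.08 ± 0.04, 0.14 ± 0.08 and 0.09 ± 0.06, and Psmg2, Psmb5 and Psmb2 were at -0.13 ± 0.08, -0.12 ± 0.10 and -0.06 ± 0.05. For the interaction, Psmb5 was at -0.31 ± 0.13 (adjusted p = 0.73), Psma2 at -0.13 ± 0.06, Psmg2 at -0.20 ± 0.10, Psme4 at 0.17 ± 0.10, Psmb8 at 0.31 ± 0.22 and Psmc1 at 0.13 ± 0.10. Partner genes behaved likewise, with 0 of 24 called for genotype in either tissue, and of the antigen presentation and interferon list 0 of 9 in the PFC and 0 of 12 in the Hypo.

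The module mean, the mean log2 CPM of the 42 members that passed the filter in both tissues, summarised each library. In the PFC it was 5.60 in the lowest, 5.90 in the median and 5.95 in the highest of 10 WT libraries, and 5.54, 5.95 and 5.999 in the 10 Ube3a2X libraries. In the Hypo it was 5.79, 5.82 and 6.63 in the 8 WT and 5.54, 5.85 and 5.88 in the 10 Ube3a2X libraries. The lowest value of each tissue and the highest of the Hypo were those of uneven libraries. Without the 5, PFC values lay between 5.77 and 5.999 and Hypo values between 5.77 and 5.88, and the Ube3a2X mean exceeded the WT mean by 0.07 in the PFC and by 0.02 in the Hypo. With all libraries these differences were 0.03 and -0.11. By role, the even libraries of the Hypo were above those of the PFC for the activators (by 0.24) and the 19S base chaperones (by 0.14), and below for the 19S ATPases (-0.28), the constitutive catalytic subunits (-0.19) and the alpha ring (-0.13). With all libraries the last 2 of these were -0.05 and -0.04, and the structural beta ring was at 0.08 in place of -0.04. The inducible subunits were represented by Psmb10 alone (-0.62), and the activators' value averages Psme1 and Psme2, which were higher, with Psme3, which was lower, and Psme4.

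Over all libraries most of the 42 members moved together, and less so over the libraries of even coverage. The correlation of a member with the mean of the other members, after removal of group means, had a median of 0.79 over the 20 PFC libraries and 0.93 over the 18 Hypo libraries, and 9 and 3 members were below 0. Over the libraries of even coverage the medians were 0.50 (17 libraries) and 0.38 (16 libraries), and 4 and 6 members were below 0. These correlations are descriptions over libraries that share a scaling to total reads. Psma7, Psmc4 and Psmb3 followed the module most closely in the PFC (0.97, 0.97 and 0.96), while Psme3 (-0.78), Psmc1 (-0.76) and Psmd7 (-0.72) were the most negative. Over the PFC libraries of even coverage these last 3 were at 0.03, -0.10 and 0.12. In the Hypo the most negative was Psme4, at -0.90 over all and -0.63 over the even libraries.

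The module mean was set beside the share of bases in coding sequence. Across the 10 WT and the 10 Ube3a2X libraries of the PFC the correlation of module mean and coding share was -0.90 and -0.91 (Spearman's rho -0.59 and -0.31), and without the uneven libraries r was -0.52 (9) and 0.20 (8). In WT Hypo r was -0.97 and rho -0.33, and in Ube3a2X Hypo r was -0.35 and rho 0.02, and without the uneven library r was 0.55 and 0.43. The part of coverage in the module values was not tested beyond this. Hypo WT female 471 had the highest module mean (6.63), the lowest coding share (37.5%) and pituitary markers at 4830 CPM over 6 genes, against a Hypo median of 109.8 CPM and values of up to 937.4 CPM in the other libraries.

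The relation of the module mean to the Ube3a level was taken within each tissue and genotype, because the Ube3a levels of WT and Ube3a2X form separate clusters. In WT PFC (10 libraries) Pearson's r was -0.25 and Spearman's rho -0.25, and in Ube3a2X PFC (10) they were -0.06 and 0.01. In Ube3a2X Hypo (10) r was -0.17 and rho 0.16, and in WT Hypo (8) it was -0.96, with a rho of -0.29. The last value rested on Hypo WT female 471, whose Ube3a level of 6.76 log2 CPM was below the 8.04 to 8.45 of the other 7 WT libraries and whose module mean was above theirs. Without it r was 0.14, and without the 2 libraries farthest from the median Ube3a level it was 0.53. In Ube3a2X Hypo, r was 0.66 without Hypo Ube3a2X male 238, which had the highest Ube3a level (10.7 log2 CPM) and the lowest module mean of its group (5.54). In PFC WT, r was 0.09 without female 397, and in PFC Ube3a2X it ranged from -0.60 without male 258 to 0.38 without female 468. No p is given for these relations. When the uneven libraries of a group were left out, r changed sign in all 4 groups, while rho kept its sign in WT PFC (-0.03) and Ube3a2X Hypo (0.60).

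**Figure D4:**
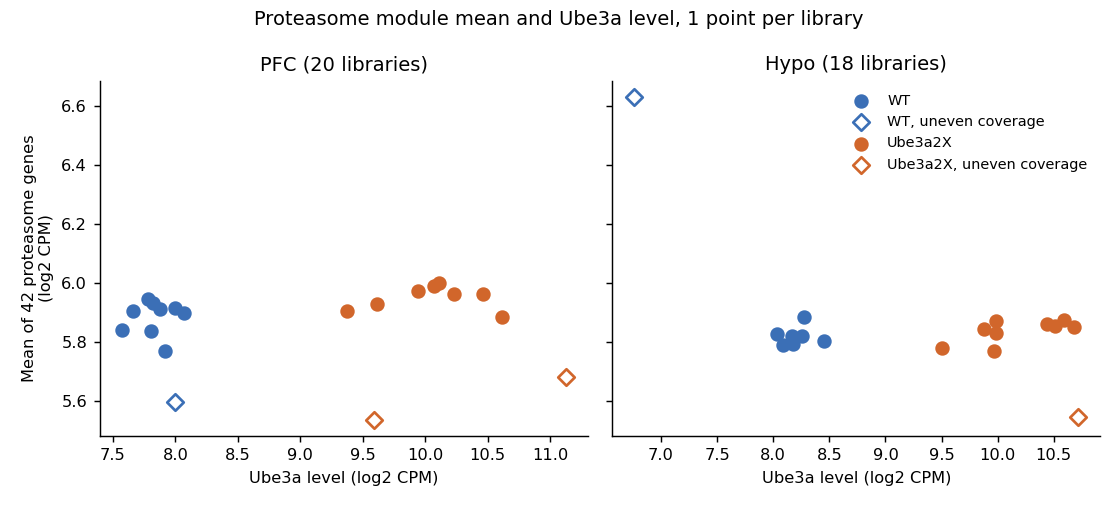
Module mean of 42 proteasome genes (log2 CPM) against the Ube3a level (log2 CPM) of each library, in the PFC (20) and Hypo (18), by genotype; open diamonds are the 5 libraries of uneven coverage. Ube3a2X libraries lie to the right of WT, filled points lie between 5.77 and 5.999 in both tissues, and Hypo WT female 471 stands alone at 6.63.

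The same question was asked gene by gene, as the slope of each member on the Ube3a level of the library within the 4 groups of a tissue. In the PFC 0 of 42 members passed, and 0% of all 12823 genes; 4 were positive and 1 negative at an unadjusted p under 0.05 (4.27% and 3.57% of all genes). Without the uneven libraries 2 were positive and 2 negative (4.03% and 5.28%). The count and the sign of the median slope (0.05) moved with 2 of these libraries. Without PFC Ube3a2X male 258 alone, 10 were negative and the median was -0.10, and without PFC Ube3a2X female 468 alone, 0 were negative and it was 0.13. The slopes of smallest p were those of Psmd11 (0.18 ± 0.07), Psmc6 (0.21 ± 0.09) and Psmd1 (0.22 ± 0.09) and, below 0, of Psme2 (-0.45 ± 0.15, adjusted p = 0.57), Psmg3 (-0.52 ± 0.35) and Psmc5 (-0.12 ± 0.08). In the Hypo 35 of 44 members passed, 34 negative and 1 positive, against 48.4% of all 13963 genes (23.1% negative and 25.3% positive). The negative slopes included Psmb6 (-0.52 ± 0.10), Psmb1 (-0.56 ± 0.11), Psme2 (-0.47 ± 0.09), Psmb2 (-0.48 ± 0.09), Psmg2 (-0.52 ± 0.10), Psma6 (-0.52 ± 0.10), Psmg3 (-0.59 ± 0.12), Psmd8 (-0.40 ± 0.08), Psmd13 (-0.34 ± 0.07) and Psmb3 (-0.48 ± 0.10), each at an adjusted p of 0.0071, and the positive one was Psme4 (0.36 ± 0.10, adjusted p = 0.010). Of the role groups, all 7 alpha ring, 4 structural beta and 3 constitutive catalytic genes were negative and called. These calls rested on 1 library: without Hypo WT female 471, 0 of 44 members passed. Without the 5 uneven libraries 0 of 45 passed, 33 of 45 slopes were above 0, and the median was 0.05 in place of -0.38.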

How the data were processed

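Read counts of 38 libraries were analysed. The authors aligned stranded paired-end mRNA reads with STAR to GRCm38 and made the deposited counts per gene with featureCounts, without normalization. The study names its gene annotation, but versions of STAR and featureCounts are not given in the sources used here. The deposited quality table gives RIN and AT dropout as a score, base and strand shares each as a fraction (converted to percent), coverage evenness and end bias as a ratio, and aligned reads as counts. The gene family, with its rule on names, and the roles and lists were chosen with earlier results of these data known. 1 gene of the name pattern is not reported here.

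A gene was dropped from a tissue where at least 2 of its libraries held under 100 reads (leaving 12824 in the PFC, 13964 in the Hypo, 14219 in either). edgeR 4.0.16 (R 4.3.3; TMM, robust quasi-likelihood test) was fitted to all genes, with Benjamini-Hochberg adjustment over them and calls at an adjusted p under 0.05. Fits of genotype used the 4 sex-genotype groups with RIN and 2 surrogate variables (sva 3.50.0) as covariates. Tissue and slope fits held groups and RIN. The study's filter on the 15% of lowest variance was an alternative, since it removes stable members. Further alternatives used limma 3.58.1, DESeq2 1.42.0, other scalings, filters and covariates, an offset for GC content and length, and fits without 1 library or, chosen after seeing the data, without the 5 of uneven coverage (over 0.53). Levels are CPM or log2 CPM (prior count 2). Coordinates are from GENCODE vM21, and 47 of 47 members matched. Named members are the 8 per direction of smallest p among tissue calls, elsewhere all called (at most 10 per direction) or, where none, 3 per direction, and always Psmb5 to Psmb11, Psma8, Psme1 to Psme4 and Ube3a. Members named for their level or correlation, and Psmd2 in the tissue comparison, were chosen after their values were seen.

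Tissues pair by mouse, since the labels give the same animal. The deviations of the 2 libraries of a mouse correlated by -0.56 to 0.41 (median -0.06, 3 of 13 over 0.1). Squared differences between libraries of a group were 11.1 to 500 times the sampling noise over 72 pairs. The fits were also run on simulated data with known changes, and the outcome is not reported here. Figures were drawn with matplotlib 3.10.9 in Python 3.11.15.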

Additional observations from a re-analysis of the deposited data

Results flagged for a closer look

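In a group of 4 or 5 libraries, a value was singled out where its gap to the nearest other library was a large share of the range of the group (Dixon's critical value at 95%). The values tested were the module mean, Ube3a, Psmb5 to Psmb11, Psma8 and Psme1 to Psme4, in the same 8 groups of libraries. They share libraries and many are correlated, so the number singled out cannot be set against a chance rate. Of 112 groups tested, 19 were singled out, and 17 of the 19 fell in the 5 libraries of uneven coverage. The part of coverage in them was not tested. For the module mean, the share was 0.7254 for PFC WT female 397, 0.7953 for PFC Ube3a2X male 258 and 0.712 for Hypo Ube3a2X male 238, each the lowest of its group. It was 0.9846 for Hypo WT female 471 and 0.8955 for Hypo WT male 403, each the highest.

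Among the members tested here, the constitutive catalytic subunits gave most of the others. The remaining members were not tested in this way, so this is no trait particular to the catalytic subunits. Psmb5 was lowest in PFC WT female 397 (0.8064) and in PFC Ube3a2X female 468 (0.8239). Psmb6 was lowest in PFC WT female 397 (0.7176), PFC Ube3a2X female 468 (0.9102) and PFC Ube3a2X male 258 (0.8445), and highest in Hypo WT female 471 (0.9554). Psmb7 was lowest in PFC WT female 397 (0.7371) and PFC Ube3a2X male 258 (0.7172), and highest in Hypo WT female 471 (0.8917). Psmb10 was lowest in PFC Ube3a2X female 468 (0.8971). Psme3 was the highest of its group in the 3 uneven PFC libraries, female 397 (0.7231), female 468 (0.7336) and male 258 (0.8349). Psmb9 was lowest in PFC Ube3a2X female 417 (0.7141), a library of even coverage in which this gene did not pass the filter on low counts.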

How the results depend on the processing

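The number of members called stayed at 0 under every alternative run for the genotype comparisons of both tissues, for the interaction in the Hypo and for the tissue by genotype test. For the tissue comparison (17) it was 33 with 2 surrogate variables (19 higher, 14 lower, against 78.9% of all genes), 26 with an offset for GC content and length (7 higher, 19 lower, against 74.5%) and 29 without the 5 uneven libraries (against 76.2%). For the tissue comparison in WT (9 higher, 8 lower) it was 30 with 2 surrogate variables (17 and 13, against 77.1% of all genes) and 30 without the uneven libraries (9 and 21, against 74.4%), and the variance filter gave 14 and 4 (against 72.2%). In Ube3a2X (5 and 10) it was 27 with 2 surrogate variables (15 and 12, against 71.8%), 24 with the offset (5 and 19, against 68.8%) and 27 without the uneven libraries (7 and 20, against 69.2%). With the replicate block, which pairs the tissues by mouse, the count was 10 for the tissue comparison (against 41.7% of all genes). It was 9 in WT and 9 in Ube3a2X, and the block changed no other count of calls. DESeq2 called 2 members in the PFC interaction (against 7.48% of all genes), and the PFC slope in WT libraries alone called 1 (Psmd1, 0.77). The Hypo slope count was 35 (against 48.4% of all genes). It was 0 with 2 quality components as covariates, 0 in Ube3a2X libraries alone and 37 in WT libraries alone (36 negative). The shares of all genes in the fits of WT libraries alone are not given, so their counts are no result about the members. Without the uneven libraries the Hypo slope count was 0, and the slopes of Psme4 (-0.0021), Psmb1 (0.036), Psmb2 (0.017), Psmg2 (0.0062), Psma6 (0.024) and Psmb3 (0.028) also changed sign. The correlation of module mean and Ube3a became 0.088 without the uneven library and -0.533 without the 2 farthest in WT PFC, 0.578 adjusted for RIN and 0.464 without the 2 farthest libraries in Ube3a2X PFC, 0.528 without the 2 farthest and 0.139 without the uneven one in WT Hypo, and 0.478 and 0.664 in Ube3a2X Hypo.

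Leaving out each library in turn gave 16 to 24 calls between the tissues, 16 to 21 in WT, 13 to 19 in Ube3a2X, 0 to 9 for the PFC interaction and 0 to 37 for the Hypo slope. The correlations then ranged from -0.374 to 0.088 in WT PFC, -0.597 to 0.381 in Ube3a2X PFC, -0.973 to 0.139 in WT Hypo and -0.298 to 0.664 in Ube3a2X Hypo. For fits without 1 library, here and above, the shares of all genes are not given. Their counts show only how far the numbers moved and are no result about the members. Leaving out the uneven libraries was chosen after seeing the data. The causes of these changes were not tested, and 4 or 5 libraries a group limit what a genotype test can show.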
